A study of Mus musculus with 6 samples.

Results

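The p53 pathway and DNA damage response genes described here are 36 genes of the mouse that were chosen by name, and the row of each was found by its gene symbol in the deposited tables, which list 25330 genes. The RNA-seq data came from AML12 cells, an immortalised mouse hepatocyte line derived from a mouse that carried a transgene for the growth factor TGF-alpha, and consisted of 6 bulk libraries. All cells were of the genotype labelled WT, came from 1 line and were grown in DMEM/F12 with fetal bovine serum, an insulin, transferrin and selenium supplement (ITS) and dexamethasone. The 3 control libraries were made from cells kept under these routine conditions in 21% oxygen (normoxia). The 3 H/R libraries were made from cells moved to 1% oxygen in medium without serum and glucose for 6 h and reoxygenated for 2 h, so that oxygen, serum and glucose changed together and cannot be told apart. The labels do not say whether replicates were separate cultures, and p-values then measure the spread between these libraries, which may be technical.

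The protein p53 is a transcription factor that cells hold at a low level through MDM2, a ubiquitin ligase that marks p53 for degradation and is itself encoded by a p53 target gene. The kinases ATM, ATR and CHK2 signal breaks and stalled replication in DNA and release p53 from this loop, after which p53 raises genes that stop the cell cycle, repair DNA, alter metabolism or start apoptosis. Many of these target genes also answer to other factors, among them stress, growth factor and FOXO regulators, and in the liver the pathway has been studied in injured and regenerating hepatocytes. RNA was measured here, and neither the p53 protein nor its modification.

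Library totals ranged from 20438746 to 21854790 counts, and all 36 genes passed the filter on low counts that left 14020 genes for testing. Of 12 hepatocyte markers, 11 had at least 10 counts in each control library, with a summed level of 4234 to 4582 CPM (counts scaled to a fixed library total) in controls and 6193 to 6224 CPM after H/R, most of it the keratin genes Krt8 and Krt18. The asialoglycoprotein receptor gene Asgr1 was listed with 1 count in 1 library and 0 in the others. Control replicate 1 stood apart in transcripts abundant in adult liver, with a summed level over 20 such genes of 69.9 CPM against 19.8 and 28.1 CPM in the other control libraries and 8.56 to 12.7 CPM after H/R. It had at least 10 counts for 19 of these genes, the other libraries for 4 or 5, and without it 16 of the 36 genes were again higher and 11 lower. A list of 14 blood, endothelial, stellate and fibroblast markers summed to 2.11 to 2.95 CPM in controls and 6.46 to 8.46 CPM after H/R. Most of that difference was Cd68, a lysosomal glycoprotein gene, with 16, 22 and 22 counts in controls and 123, 113 and 137 after H/R. The leukocyte, macrophage and endothelial markers Ptprc, Adgre1 and Pecam1 had 0 to 3 counts in every library. In each single library only 1 or 2 of the 14 genes reached 10 counts. Besides Cd68 these were Col1a1 (12 and 15 in control replicates 2 and 3, 16 in H/R replicate 3) and Des (13 in H/R replicate 1). The part of these differences in the results below was not tested. In bulk RNA, fewer cells of a type and less RNA per cell cannot be told apart.

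After H/R, 16 of the 36 genes were higher and 11 lower in edgeR's quasi-likelihood test at an adjusted p under 0.05, and 9 did not pass. The largest increases were in growth arrest genes, led by cyclin G2, Polo-like kinase 2 and Gadd45a. The largest decreases were in the checkpoint kinase gene Chek2 and in Brca1. Of the 5 genes of p53 and its feedback, only Mdm2 was higher. The share of the 36 genes that was higher was 44.4%, beside 31.0% of all 14020 genes tested. The share that was lower, 30.6%, was close to the 31.8% of all genes. With the additional threshold of a fold change of at least 2, which the study also used, 9 genes (25.0%) were higher beside 4.25% of all genes, and 4 genes (11.1%) were lower beside 4.27% of all genes. In 29 of the 36 genes the normalized counts of the 3 control and 3 H/R libraries did not overlap, 16 with H/R above and 13 with H/R below, a share of 80.6% beside 65.9% of all genes. The median log2 fold change was 0.08 for the 36 genes and -0.01 for all genes, and the values ran from -1.58 to 2.82.

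**Figure D1:**
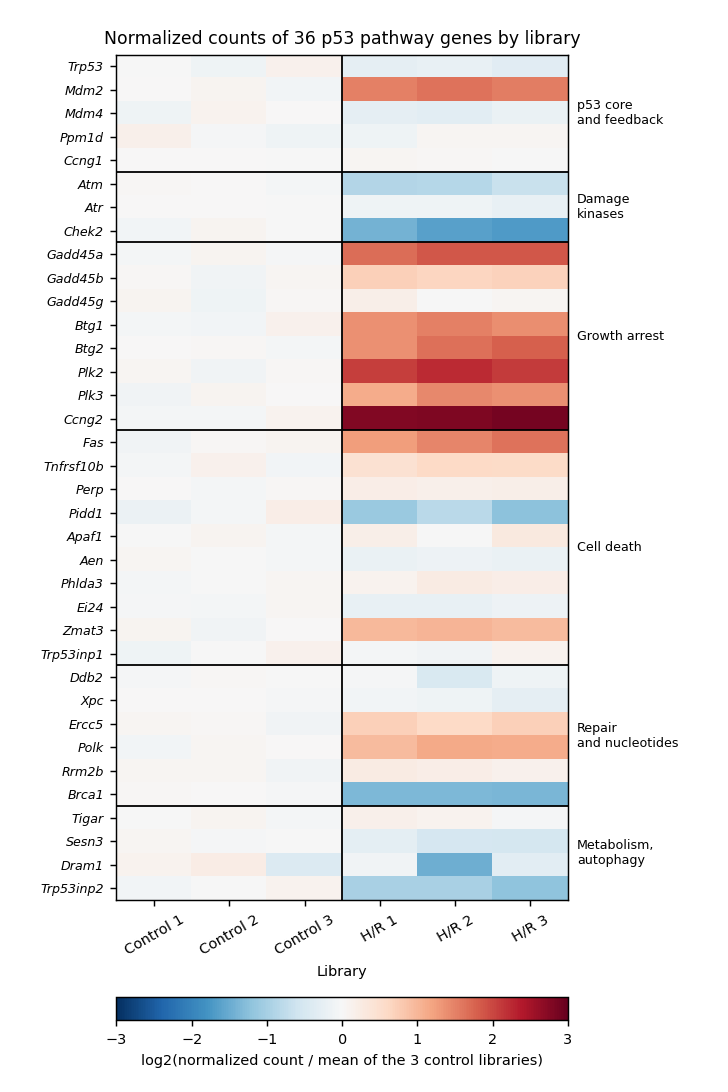
Heat map of the normalized counts of the 36 genes in each of the 6 libraries, with rows ordered by role and colour showing log2 of the count over the mean of the 3 control libraries (scale -3 to 3). The 3 H/R columns are dark red for Ccng2 and Plk2, red for Gadd45a, Mdm2 and Btg2, and blue for Chek2 and Brca1, and the control columns are pale throughout.

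**Figure D2:**
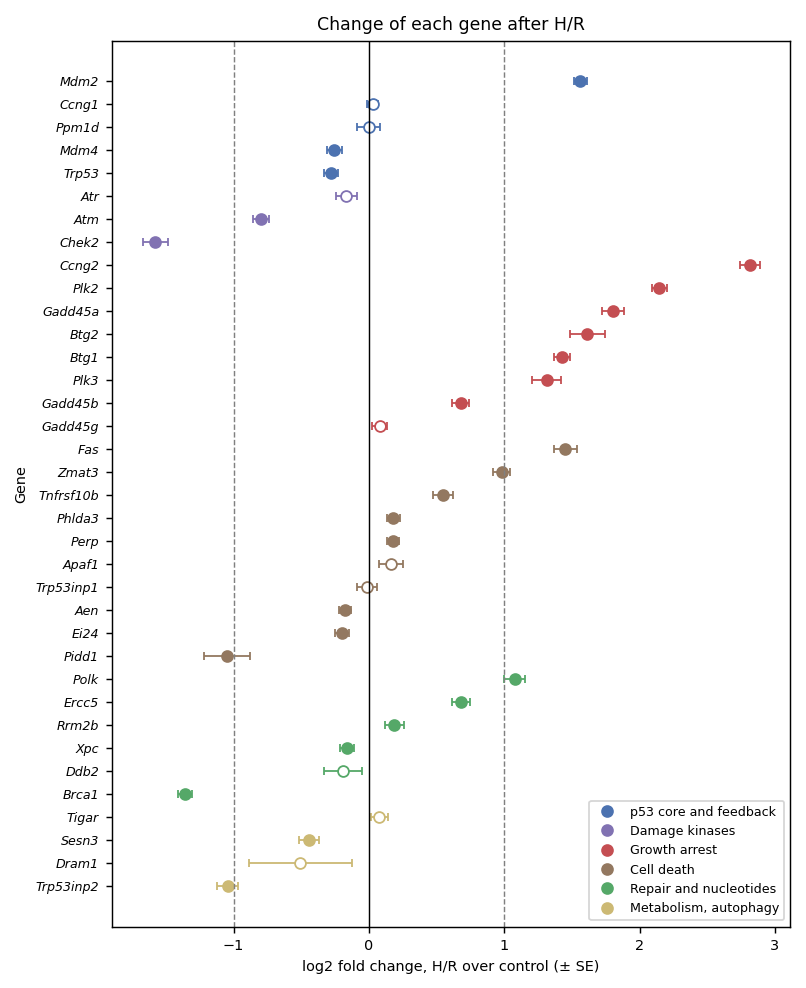
Log2 fold change of each gene after H/R over control from edgeR, grouped by role, with bars for 1 standard error, filled points for an adjusted p under 0.05 and dashed lines at a fold change of 2. Of the 8 growth arrest genes, 7 lie to the right of 0 with filled points, and the values over all genes run from -1.58 for Chek2 to 2.82 for Ccng2.

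Of the 5 genes of p53 and its feedback, Mdm2 rose, Trp53 and Mdm4 fell slightly, and Ppm1d and Ccng1 did not pass the test. The shares were 20% higher and 40% lower, beside 31.0% and 31.8% of all genes. Trp53 (chr11:69580359-69591873, forward strand, GRCm38), which encodes p53 itself, had normalized counts (counts rescaled to a common library size with the TMM factors) of 2083, 1947 and 2313 in control replicates 1 to 3 and 1745, 1805 and 1679 in H/R replicates 1 to 3. Every H/R library lay below every control library. The mean was 2114 ± 185 in controls and 1743 ± 63.3 after H/R (SD, n = 3 each), a log2 fold change of -0.28 with a standard error (SE) of 0.053 and an edgeR adjusted p of 3.76e-05. In all alternative fits Trp53 stayed lower, with log2 fold changes from -0.39 to -0.21.

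Mdm2 (chr10:117688888-117710758, reverse strand), the ubiquitin ligase that degrades p53, had normalized counts of 1923, 2004 and 1790 in controls and 5447, 5928 and 5516 after H/R. The H/R libraries were all more than 2-fold above the controls. The mean was 1906 ± 108 against 5630 ± 260.4 (SD, n = 3 each), an increase of 2.96-fold or, as a log2 fold change, 1.56 (SE 0.047, edgeR adjusted p = 9.32e-25). Its partner Mdm4, which binds p53 and restrains it without degrading it, moved the other way, with a log2 fold change of -0.26 (SE 0.054, edgeR adjusted p = 0.000147). Ppm1d encodes WIP1, the phosphatase that switches off ATM and p53 signalling, and its normalized counts were 413, 362 and 339 in controls and 338, 388 and 387 after H/R. These values overlapped, with a log2 fold change of 0.00 (SE 0.085) and an edgeR adjusted p of 0.999. Ccng1, the cyclin G1 gene, is a p53 target whose product works with a protein phosphatase on MDM2. Its normalized counts were 3486, 3494 and 3476 in controls and 3632, 3599 and 3436 after H/R, again with overlap, and its log2 fold change was 0.03 (SE 0.042, edgeR adjusted p = 0.571).

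The sequence upstream of the start of Mdm2 is shown because Mdm2 is the feedback gene that rose and this window holds a match to the p53 half-site, the 10-base unit that p53 binds. It covers the 250 bases before the RefSeq start, 5′ to 3′ (chr10:117710759-117711008, reverse strand, GRCm38.p6), with the match in capitals at positions -186 to -177 from the start base, which is counted as 0.
Mdm2 promoter: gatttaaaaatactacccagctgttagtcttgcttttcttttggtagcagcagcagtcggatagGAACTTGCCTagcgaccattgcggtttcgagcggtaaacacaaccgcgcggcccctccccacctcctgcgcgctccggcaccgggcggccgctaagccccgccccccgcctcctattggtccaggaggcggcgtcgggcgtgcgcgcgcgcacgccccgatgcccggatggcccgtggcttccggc
Half-site matches occurred in the windows of 8 of the 29 genes with a promoter window, namely Aen, Ccng1, Ei24, Gadd45a, Mdm2, Polk, Ppm1d and Trp53. By window, matches occurred in 9 of the 32 windows of the 29 genes and in 8.36% of all 32851 promoter windows. Of these 8 genes, 3 were past both thresholds and higher (Mdm2, Gadd45a and Polk), and Ccng1 and Ppm1d did not pass the test, while Trp53, Aen and Ei24 were lower. A pair of half-sites with up to 13 bases between them was found in none of the 29 genes and in 0.0731% of all windows. A match describes letters in this window alone, and p53 is known to bind many of its targets in introns or farther upstream.

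The 3 genes of the kinases that signal DNA damage were all lower in every H/R library than in any control library, and 2 of them passed the test. Over all 14020 genes, 4692 had H/R below control without overlap and 31.8% were called lower, and 3 genes are few to set beside these shares. Chek2 (chr5:110839979-110874145, forward strand) encodes CHK2, the checkpoint kinase that ATM activates after a double-strand break. It had normalized counts of 421, 472 and 438 in controls and 166, 143 and 137 after H/R, so that no H/R library reached the level of the lowest control library. The mean fell from 444 ± 25.9 to 149 ± 15.2 (SD, n = 3 each), a log2 fold change of -1.58 (SE 0.094, edgeR adjusted p = 1.9e-16) and the largest decrease among the 36 genes. Atm, the kinase that senses double-strand breaks, had a log2 fold change of -0.80 (SE 0.060, edgeR adjusted p = 8.94e-14). Atr encodes the kinase that answers to stalled replication forks and single-stranded DNA, and its normalized counts were 410.0, 407 and 399 in controls and 370.5, 369 and 345 after H/R. Its groups did not overlap, but the log2 fold change of -0.17 (SE 0.077) had an edgeR adjusted p of 0.058. Exons of other genes on the opposite strand cover 5.03% of its exon length.

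Chek2 was also the only 1 of the 29 genes with a match to the E2F motif (TTTCCCGC or TTTGGCGC on either strand). The motif was present in 1 of their 32 windows and in 1.56% of all windows. The upstream sequence of Chek2 is printed because it holds this match (chr5:110839733-110839982, forward strand, GRCm38.p6). The match, read here on the opposite strand, is in capitals at positions -152 to -145.
Chek2 promoter: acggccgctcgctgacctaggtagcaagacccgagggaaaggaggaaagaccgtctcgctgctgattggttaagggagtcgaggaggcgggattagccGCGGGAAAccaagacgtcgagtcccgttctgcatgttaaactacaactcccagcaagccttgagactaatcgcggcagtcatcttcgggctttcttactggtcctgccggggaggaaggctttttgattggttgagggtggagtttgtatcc

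Among the 8 growth arrest genes, 7 were higher after H/R and none was lower, and 6 of the 7 were past both thresholds. The higher share was 87.5%, beside 31.0% of all genes. The median log2 fold change of the 8 genes was 1.52, beside -0.01 over all genes. The role groups were drawn with earlier results of these data known, so these values describe the group and are not a test of it. Ccng2 (chr5:93267257-93276231, forward strand) encodes cyclin G2, an unconventional cyclin that slows the cell cycle and whose gene is also a known FOXO target. Its normalized counts were 160.0, 160.0 and 179.8 in controls and 1146, 1157 and 1220 after H/R. The spread within each group was small beside the gap between them, 167 ± 11.4 against 1174 ± 40.0 (SD, n = 3 each). The increase was 7.04-fold, with a log2 fold change of 2.82 (SE 0.071, edgeR adjusted p = 5.66e-27), the largest of the 36 genes.

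The Polo-like kinase genes Plk2 and Plk3, both stress-responsive members of a family best known for Plk1 in mitosis, rose together. Plk2 (chr13:110395044-110400844, forward strand) had normalized counts of 866, 766 and 849 in controls and 3509, 3929 and 3560 after H/R, and every H/R library was more than 2-fold above the highest control. The control mean was 827 ± 53.9 and the H/R mean 3666 ± 229 (SD, n = 3 each), with a log2 fold change of 2.15 (SE 0.053, edgeR adjusted p = 9.42e-26). For Plk3, which phosphorylates p53 and checkpoint proteins, the normalized counts were 116, 132 and 126 in controls and 268, 336 and 324 after H/R. The Plk3 groups did not overlap, and the log2 fold change was 1.31 (SE 0.107, edgeR adjusted p = 7.44e-13). An exon of Tctex1d4 on the opposite strand, with 1 to 3 counts in any library, covers 3.32% of the Plk3 exon length.

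The 3 Gadd45 genes encode small stress proteins that bind the PCNA clamp and the mitotic kinase CDK1 and activate p38 and JNK signalling. Gadd45a (chr6:67035096-67037457, reverse strand), the member that p53 controls directly, had normalized counts of 184, 205 and 189 in controls and 618, 698 and 696 after H/R. No library of a group came near the other group, and the mean was 193 ± 10.9 against 671 ± 45.6 (SD, n = 3 each). Its log2 fold change was 1.80 (SE 0.081, edgeR adjusted p = 8.65e-20). Exons of the opposite-strand gene E230016M11Rik cover 19.1% of the exon length of Gadd45a, and that gene itself went from 48.8 ± 10.4 to 130.1 ± 22.2 normalized counts, and as the sources used here do not give the strand setting of the counting, reads in the shared stretch cannot be told apart. Gadd45b, which responds to NF-kB and TGF-beta, had a log2 fold change of 0.68 (SE 0.062, edgeR adjusted p = 1.26e-11). Gadd45g had normalized counts of 1887, 1648 and 1838 in controls and 2019, 1787 and 1870 after H/R, which overlapped, with a log2 fold change of 0.08 (SE 0.053, edgeR adjusted p = 0.2).

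The antiproliferative genes Btg1 and Btg2, whose products recruit the CCR4-NOT complex that shortens poly(A) tails, were both higher. Btg1 had normalized counts of 618, 608 and 700.4 in controls and 1667, 1823 and 1692 after H/R. With no overlap, the log2 fold change was 1.43 (SE 0.058, edgeR adjusted p = 3.63e-21). Btg2, the member regarded as a classic p53 target and immediate-early gene, was counted less often, with 76.7, 78.0 and 73.4 normalized counts in controls and 198, 237 and 263 after H/R. The 3 H/R libraries of Btg2 spread more widely than the controls (76.0 ± 2.36 against 233 ± 32.6, SD, n = 3 each), all above them, and its log2 fold change was 1.61 (SE 0.126, edgeR adjusted p = 2.39e-13). The processed copies Btg1-ps1 and Btg1-ps2 had 0 or 1 counts in every library, and the copy Mdm4-ps of the feedback gene Mdm4 had 6 to 23.

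The upstream sequences of Gadd45a, Plk2 and Btg2 are shown because these are arrest genes past both thresholds whose windows hold a p53 half-site (Gadd45a) or the cyclic AMP response element TGACGTCA (CRE, Plk2 and Btg2). The lines give the 250 bases before the RefSeq start on GRCm38.p6 for Gadd45a (chr6:67037408-67037657, reverse strand), Plk2 (chr13:110394794-110395043, forward strand) and Btg2 (chr1:134079156-134079405, reverse strand), with the motif in capitals. The matches lie at -40 to -31 in Gadd45a, at -62 to -55 in Plk2 and at -166 to -159 in Btg2. In the deposited tables the first exon of Gadd45a starts farther upstream, so its match falls inside that exon.
Gadd45a promoter: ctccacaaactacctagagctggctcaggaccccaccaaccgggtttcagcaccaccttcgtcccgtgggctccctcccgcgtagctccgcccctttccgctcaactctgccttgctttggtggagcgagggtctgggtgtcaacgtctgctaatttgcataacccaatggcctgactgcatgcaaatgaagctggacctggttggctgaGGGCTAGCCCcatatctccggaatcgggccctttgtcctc
Plk2 promoter: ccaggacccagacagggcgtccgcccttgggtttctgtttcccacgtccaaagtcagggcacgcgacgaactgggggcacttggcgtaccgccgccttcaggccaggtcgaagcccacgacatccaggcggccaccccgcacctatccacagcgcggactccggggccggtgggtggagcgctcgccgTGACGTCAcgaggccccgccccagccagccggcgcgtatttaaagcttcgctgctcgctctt
Btg2 promoter: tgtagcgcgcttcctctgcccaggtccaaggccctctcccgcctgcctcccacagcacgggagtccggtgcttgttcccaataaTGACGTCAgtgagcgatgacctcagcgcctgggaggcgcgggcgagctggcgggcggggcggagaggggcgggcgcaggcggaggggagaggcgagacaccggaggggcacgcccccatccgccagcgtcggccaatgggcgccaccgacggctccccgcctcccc
The CRE was present in 4 of the 29 genes (Btg2, Plk2, Ppm1d and Trp53inp2), by window in 4 of their 32 and in 1.79% of all windows. Of these 4 genes Btg2 and Plk2 were higher, Trp53inp2 was lower, and Ppm1d did not pass the test. The AP-1 motif TGANTCA was found in Fas and Mdm4, by window in 2 of the 32 and in 7.81% of all windows. The core of the HIF element (ACGTG or GCGTG) was found in 19 of the 29 genes, by window in 20 of the 32 and in 43.8% of all windows. Motifs were searched on both strands, and in Aen a half-site and a HIF core share bases.

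Of the 10 cell death genes, 5 were higher, 3 lower and 2 not past the test, and 1 in each direction was past both thresholds. The lower share of 30% was close to the 31.8% of all genes, the higher share was 50% beside 31.0%, and the median log2 fold change of the 10 genes was 0.17. Fas (chr19:34290659-34327770, forward strand), the death receptor for FAS ligand, had normalized counts of 400.5, 442 and 459 in controls and 1030, 1194 and 1333 after H/R. All H/R libraries were more than 2-fold above the highest control, although they differed among themselves (434 ± 30.2 against 1186 ± 152, SD, n = 3 each). The log2 fold change was 1.45 (SE 0.084, edgeR adjusted p = 1.18e-10). Tnfrsf10b, the mouse receptor for the death ligand TRAIL, was also higher, with a log2 fold change of 0.55 (SE 0.074, edgeR adjusted p = 7.76e-08).

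Zmat3, which encodes a zinc finger protein that binds RNA and takes part in p53-dependent growth control, had the smallest p of the group. It had 536, 473 and 506 normalized counts in controls and 986, 1030 and 977 after H/R, with a log2 fold change of 0.98 (SE 0.061, edgeR adjusted p = 5.51e-16). The groups lay far apart, but the fold change of 1.97 was just below 2. Pidd1 encodes the scaffold of the PIDDosome, which activates caspase-2, and was the gene of this group that fell past both thresholds. Its normalized counts were 90.0, 96.6 and 116 in controls and 46.3, 57.2 and 43.0 after H/R, with no overlap, and its log2 fold change was -1.05 (SE 0.17, edgeR adjusted p = 2.09e-06). Its log2 fold change was -0.93 without control replicate 3 and -0.96 without H/R replicate 3, both under a fold change of 2.

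The log2 fold changes of the other death genes lay between -0.20 and 0.18. Perp, a membrane protein of desmosomes, and Phlda3, an inhibitor of AKT, had log2 fold changes of 0.18 (edgeR adjusted p = 0.000617) and 0.18 (edgeR adjusted p = 0.00225), and neither passed the test when libraries were scaled by their totals alone. Aen, a nuclease of apoptotic cells, and Ei24, a membrane protein of the endoplasmic reticulum, were lower, with log2 fold changes of -0.18 (edgeR adjusted p = 0.000544) and -0.20 (edgeR adjusted p = 0.00127). Exons of Gm26787 on the opposite strand cover 6.66% of Ei24. Apaf1, the core of the apoptosome that activates caspase-9, had normalized counts of 297, 319.9 and 289 in controls and 342, 299.8 and 369.7 after H/R. These overlapped, and the log2 fold change was 0.16 (SE 0.088, edgeR adjusted p = 0.11). Trp53inp1, a stress protein of the p53 and autophagy pathways, had 457, 494 and 542 in controls and 480.4, 463 and 537 after H/R, also overlapping, with a log2 fold change of -0.01 (SE 0.075, edgeR adjusted p = 0.891).

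The 6 genes of DNA repair and nucleotide supply were split, with 3 higher, 2 lower and 1 not past the test, and a median log2 fold change of 0.01. The lower share of 33.3% was close to the 31.8% of all genes, and 5 of 6 genes passed the test in either direction beside 62.8% of all genes. Brca1 (chr11:101488764-101551955, reverse strand), a ubiquitin ligase subunit of homologous recombination, had normalized counts of 1786, 1747 and 1703 in controls and 686, 680.5 and 672 after H/R. The replicates agreed closely within each group, 1745 ± 41.4 against 679 ± 7.33 (SD, n = 3 each), and did not overlap between groups. The log2 fold change was -1.36 (SE 0.052, edgeR adjusted p = 6.88e-22), which is a 2.57-fold lower level after H/R. Polk, a DNA polymerase that copies past damaged bases, moved in the opposite direction, with normalized counts of 242, 269 and 261 in controls and 501, 568 and 559 after H/R. Its groups did not overlap, and the log2 fold change was 1.08 (SE 0.080, edgeR adjusted p = 7.2e-14), and was 0.97 when libraries were scaled by their totals alone.

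The nucleotide excision repair genes of the group were split in the same way. Ercc5, which encodes the endonuclease XPG, was higher with a log2 fold change of 0.68 (SE 0.067, edgeR adjusted p = 7.8e-11). Xpc, which recognises helix-distorting damage, was lower with a log2 fold change of -0.16 (edgeR adjusted p = 0.00582), a call that was lost without H/R replicate 3 (adjusted p = 0.0798). Ddb2, the partner of damage recognition in chromatin, had normalized counts of 109, 114 and 110.1 in controls and 109, 80.9 and 102 after H/R. All 3 H/R values of Ddb2 lay below the controls, the nearest by less than 1 count, and its log2 fold change was -0.19 (SE 0.139, edgeR adjusted p = 0.239). Exons of Acp2 on the opposite strand cover 23.8% of Ddb2. Rrm2b, the p53-inducible subunit of ribonucleotide reductase, had a log2 fold change of 0.19 (SE 0.069, edgeR adjusted p = 0.0182). Its call was lost without control replicate 3, H/R replicate 1 or H/R replicate 2, with adjusted p from 0.0577 to 0.119.

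None of the 4 genes of metabolism and autophagy was higher, 2 were lower and 2 did not pass the test. With 31.0% of all genes higher and 31.8% lower, counts over 4 genes say little beyond that background. Trp53inp2, which encodes a protein that helps autophagosomes form and binds LC3, had normalized counts of 598, 621 and 674 in controls and 321, 324 and 275 after H/R. The groups did not overlap, and the mean was 631 ± 39.2 against 306 ± 27.4 (SD, n = 3 each). Its log2 fold change was -1.04 (SE 0.077, edgeR adjusted p = 5.73e-14). It was -0.99 without control replicate 3 and -0.97 without H/R replicate 3, both under a fold change of 2. Sesn3, a sestrin that restrains mTORC1, had a log2 fold change of -0.44 (SE 0.075, edgeR adjusted p = 4.75e-06). Tigar, a phosphatase that diverts glucose from glycolysis, had normalized counts of 829.5, 884 and 797 in controls and 933, 898 and 819 after H/R, which overlapped (log2 fold change 0.08, SE 0.060, edgeR adjusted p = 0.262). Exons of Platr31 on the opposite strand cover 3.34% of Tigar. Dram1, a lysosomal membrane protein of p53-driven autophagy, was the least abundant of the 36 genes. It had 16.1, 17.6 and 11.3 normalized counts in controls and 14.0, 5.39 and 12.0 after H/R, and at such counts the log2 fold change of -0.51 had an SE of 0.382 (edgeR adjusted p = 0.255), so a change of this size was not detectable at this depth.

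Levels between genes were compared as normalized RPKM, which are the deposited values per gene length and library total, rescaled by the same library factors. Gadd45g had the highest level in both groups, with means of 72.2 RPKM in controls and 76.3 RPKM after H/R, and Dram1 the lowest, with 0.233 and 0.162 RPKM. Plk2 moved from the ninth to the second place, from 14.0 to 61.9 RPKM. Mdm2 went from the eighth place (17.8 RPKM) to the fourth (52.5 RPKM). Ccng2, in spite of the largest fold change, moved from 1.44 to 10.2 RPKM and stayed below the level of its relative Ccng1, which had 46.9 and 47.9 RPKM. Chek2 fell from 6.99 to 2.34 RPKM and Brca1 from 9.67 to 3.76 RPKM.

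**Figure D3:**
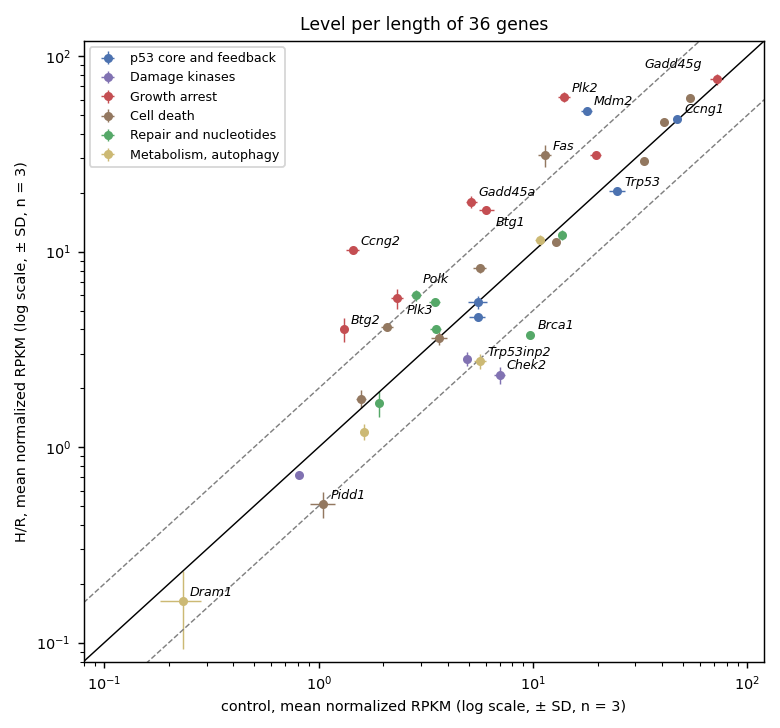
Mean level of each of the 36 genes after H/R against control, in normalized RPKM on log axes, coloured by role, with bars for the SD of 3 libraries, a solid line for equal levels and dashed lines at a 2-fold difference. Plk2 (14.0 to 61.9 RPKM) and Mdm2 (17.8 to 52.5 RPKM) are the most abundant genes above the upper dashed line, Chek2 and Brca1 lie below the lower one, and Gadd45g stays near the line of equal levels at the top.

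Ratios were taken within each library between genes of a family and, for Mdm2 to Trp53 and Chek2 to Atm, between genes of the pathway. They were computed for 11 pairs, each with an exact two-sided permutation test over the 6 libraries, for which 0.1 is the smallest p that 3 against 3 libraries allow. The 10 pairs other than Btg2 to Btg1 did not overlap between groups and reached that p of 0.1, with a Benjamini-Hochberg adjusted value of 0.11 over the 11 pairs. Every pair holds a gene called higher or lower above, so separation of its ratio is no independent result. Ratios of other gene pairs were not computed, and 65.9% of single genes already did not overlap between groups. The RPKM of Mdm2 relative to Trp53 was 0.737, 0.821 and 0.617 in controls and 2.49, 2.62 and 2.62 after H/R. Per length, Mdm2 was the less abundant RNA of the pair in each control library and the more abundant in each H/R library. In normalized counts Mdm2 was already the more abundant in control replicate 2 (2004 against 1947), but not in control replicates 1 and 3. Mdm2 relative to Mdm4 was 3.57, 3.13 and 3.02 in controls and 11.0, 12.5 and 10.7 after H/R.

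Gadd45a held 4.88% to 6.09% of the summed RPKM of the 3 Gadd45 genes in controls and 12.7% to 15.4% after H/R, while Gadd45g held 73.7% to 75.3% and then 59.4% to 62.6%. Their sum was 90.2 to 101 RPKM in controls and 121 to 130.1 RPKM after H/R, so Gadd45g remained the main transcript of the family in all 6 libraries. The ratio of Ccng2 to Ccng1 was 0.0295, 0.0295 and 0.0333 in controls and 0.203, 0.207 and 0.229 after H/R. Plk2 relative to Plk3 was 6.78, 5.25 and 6.08 in controls and 11.8, 10.6 and 9.93 after H/R. Chek2 relative to Atm was 1.32, 1.49 and 1.45 in controls and 0.977, 0.826 and 0.699 after H/R. Per length, Chek2 was thus above Atm in each control library and below it in each H/R library. That order depends on the gene lengths of the deposited tables (3001 bases for Chek2, 10338 for Atm). In normalized counts Chek2 was below Atm in all 6 libraries, with 421 against 1096 in control replicate 1. The ratio of Btg2 to Btg1 overlapped between groups (0.192 to 0.235 in controls, 0.217 to 0.284 after H/R, exact permutation p = 0.4).

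**Figure D4:**
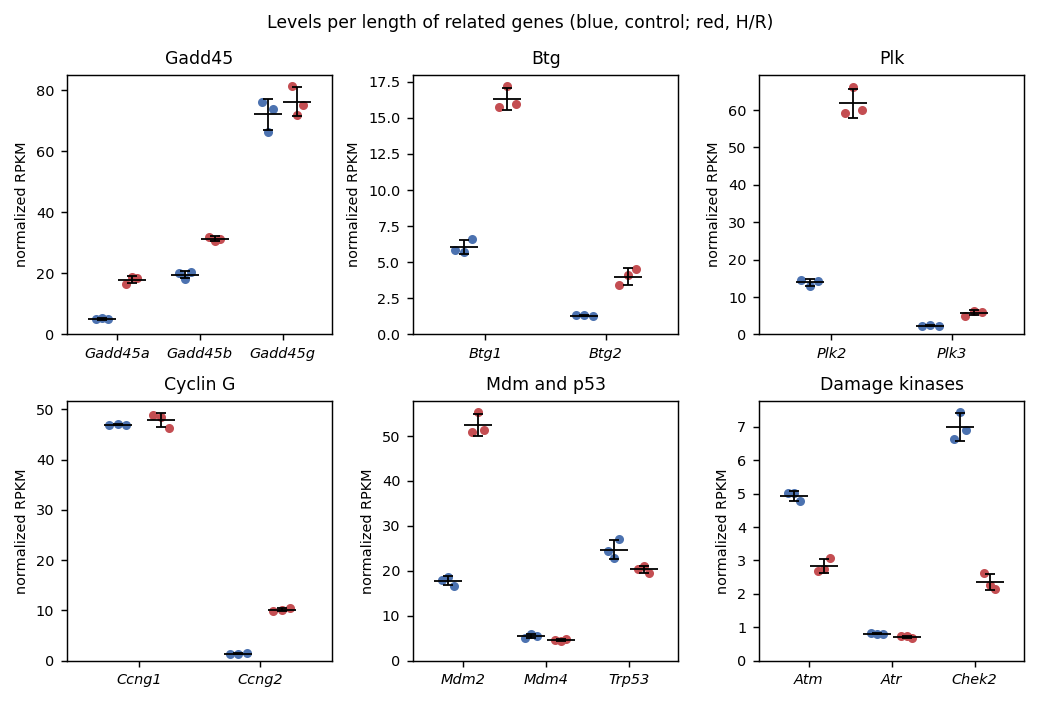
Levels per length of related genes in the 6 libraries (blue, control; red, H/R) in normalized RPKM on linear axes, with a horizontal bar for the mean and an error bar for the SD of 3 libraries. Gadd45a, Btg1, Plk2, Ccng2 and Mdm2 separate upwards, Chek2 and Atm separate downwards, and the points of Gadd45g and Ccng1 overlap.

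Other genes of the pathway were counted on lists written by hand. Of 36 further p53 targets, 33 were tested, and 18 were higher, 6 lower and 9 not past the test, with a median log2 fold change of 0.24 beside -0.01 over all genes. The higher share was 54.5% and the lower share 18.2%, beside 31.0% and 31.8% of all genes. Past both thresholds were 8 higher genes (24.2%, beside 4.25% of all genes) and 1 lower gene (3.03%, beside 4.27%). Cdkn1a, which encodes the cyclin-dependent kinase inhibitor p21, had normalized counts of 835, 703 and 758 in controls and 1414, 1578 and 1538 after H/R, without overlap, and a log2 fold change of 0.98 (SE 0.059, edgeR adjusted p = 1.36e-15) that was just below 2-fold. The largest increases were those of Thbs1, a secreted matrix protein (2.50, edgeR adjusted p = 4.25e-17), Gdf15, a secreted stress factor (2.17, edgeR adjusted p = 1.37e-12), and Epha2, a receptor tyrosine kinase (2.08, edgeR adjusted p = 2.24e-28), on the log2 scale. The lower gene past both thresholds was Sesn1, a sestrin, with a log2 fold change of -1.07 (edgeR adjusted p = 4.28e-10). The sestrins did not move one way, as Sesn2, named here after its values were seen, was higher with a log2 fold change of 1.60 (edgeR adjusted p = 4.44e-15), while Sesn1 and Sesn3 were lower.

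Among 64 further checkpoint and DNA repair genes the direction was mostly downward, with 8 higher, 37 lower and 19 not past the test. Their median log2 fold change was -0.29. The higher share was 12.5% and the lower share 57.8%, beside the same 31.0% and 31.8%. The damage kinase and repair genes described above were mixed. Chek2, Atm, Brca1 and Xpc were lower, while Polk, Ercc5 and Rrm2b were higher. Atr and Ddb2 did not pass the test. Of the 13 base excision and mismatch repair genes 11 were lower and none higher, and of the 16 checkpoint genes 9 were lower and none higher. The 12 recombination genes had 8 lower and 2 higher, and the 7 end-joining genes 3 lower and none higher. Nucleotide excision repair was even, with 4 of 11 in each direction, as was translesion synthesis with 2 of 5 in each direction. Past both thresholds were 4 lower genes (6.25%, close to the 4.27% of all genes) and no higher gene (4.25% of all genes). The largest decreases were in Ung, the uracil-DNA glycosylase (-2.39, edgeR adjusted p = 4.45e-15), and Clspn, the adaptor claspin through which ATR activates CHK1 (-1.60, edgeR adjusted p = 8.81e-24), on the log2 scale.

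**Figure D5:**
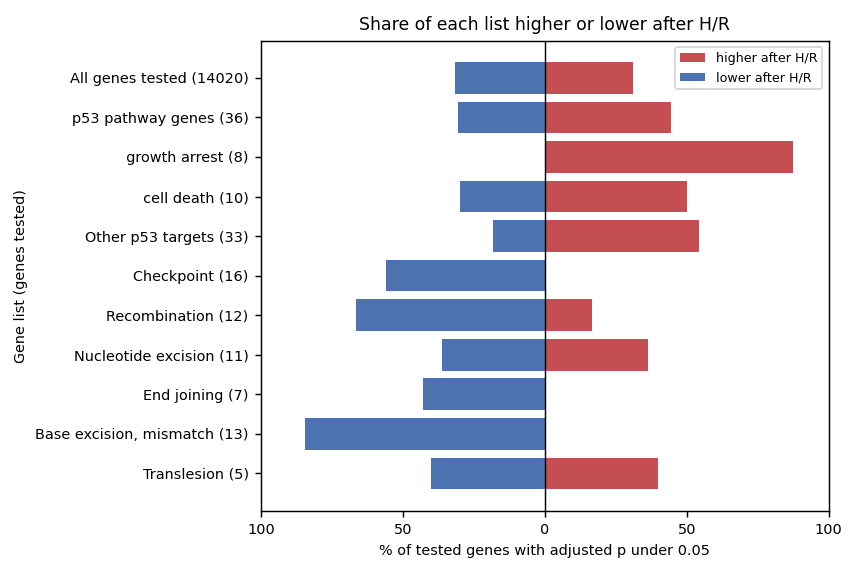
Share of tested genes with an adjusted p under 0.05 in edgeR, higher (red, to the right) or lower (blue, to the left) after H/R, for all 14020 genes, the 36 genes, their growth arrest and cell death groups, and the lists of other p53 targets, checkpoint and repair genes, with the number tested in brackets. The growth arrest bar extends only to the right (87.5%), and the base excision and mismatch repair bar extends only to the left (84.6%).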

How the data were processed

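Bulk RNA-seq of AML12 cells was analysed from 3 control and 3 H/R libraries, grouped by the sample labels. Paired-end reads of stranded mRNA libraries were mapped to GRCm38. The submitters' processing notes name Trimmomatic 0.36, featureCounts, Subread 1.5.1 and edgeR 3.12.1, and the strand setting of the counting is not given in the sources used here. The deposited counts are whole numbers per gene without normalization, and the deposited RPKM could be recomputed from count, gene length and library total with a largest relative error of 1.13e-06. Coordinates are those of the deposited tables.

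Counts were tested in R 4.3.3 with edgeR 4.0.16 (filterByExpr, TMM scaling, robust quasi-likelihood fit), with Benjamini-Hochberg adjustment over 14020 genes, and the scripts were tested on simulated data. A gene was higher or lower at an adjusted p under 0.05, and past both thresholds with a fold change of at least 2 as well. The 36 genes, the role groups, the other lists and the tests were chosen with earlier results of these data known. Values per library are given for Trp53, for genes past both thresholds and, in each role group, for the gene with the smallest p and those not past the test. Of the other p53 targets, Cdkn1a and up to 3 genes in each direction with the largest change past both thresholds are named, and of the repair lists up to 2 in each direction. The 3 replicates share numbers between groups, but same-numbered libraries did not deviate together (correlations -0.0231, 0.00385 and -0.0152), so no pairing was used. Replicates of a group differed by more than sampling noise (2.19 to 16.2 chi-square units per degree of freedom), and each was counted as 1 sample.

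Promoter windows (250 bases before to 50 after the start) came from RefSeq on GRCm38.p6, with 32 windows for 29 of the 36 genes. Tnfrsf10b, Perp, Trp53inp1, Rrm2b, Ddb2, Zmat3 and Xpc were not matched. Alternatives were DESeq2 1.42.0, scaling by the upper quartile or by library totals, leaving out the filter or asking for 10 counts in every library, a block on the replicate number, non-robust dispersions, limma 3.58.1 on log2(RPKM + 1) and log2(RPKM + 0.1), a test against a fold change of 1.5, leaving out genes that share exon sequence, and leaving out each library.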

Additional observations from a re-analysis of the deposited data

How the results depend on the processing

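The 13 genes past both thresholds kept their direction and an adjusted p under 0.05 in all 206 comparisons with an alternative. Over the 36 genes, 319 of 353 results from alternatives on all libraries, and 204 of 216 with 1 library left out, kept their direction and side of the threshold. The number of lower genes past both thresholds was 2 instead of 4 with limma on log2(RPKM + 1), and 2 to 4 when a library was left out (2 without control replicate 3 or H/R replicate 3), where Pidd1 and Trp53inp2 were under a fold change of 2. The number of higher genes past both thresholds was 7 instead of 9 with limma on log2(RPKM + 1), where Plk3 (log2 fold change 0.94) and Polk were under a fold change of 2. It was 8 with library totals and with limma on log2(RPKM + 0.1), each without Polk, and 10 without control replicate 1, with Zmat3 added. It was 7 when genes sharing exon sequence were left out, among them Gadd45a and Plk3. Under the replicate block 16 genes were higher and 11 lower, 9 and 4 of them past both thresholds, and it changed no call of the 36 genes.

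The median over all genes tested (log2) was -0.01 with TMM, -0.12 with library totals alone and -0.08 with upper quartile scaling. Ppm1d, Ccng1, Gadd45g and Tigar stayed above it with each of these scalings, but some of their signs turned. In some other fits Ppm1d was below the median. It was at -0.087 beside -0.076 with limma (pseudocount 1), and at -0.062 beside -0.014 without control replicate 3. Ppm1d was at -0.070 with upper quartile scaling, -0.10 with library totals, -0.00060 without a filter, -0.0084 with at least 10 counts in every library, -0.087 and -0.10 with limma (pseudocounts 1 and 0.1) and from -0.062 to 0.084 with a library left out. Ccng1 was at -0.042, -0.077, -0.075 and -0.076 (upper quartile, library totals, limma with 1 and with 0.1). Gadd45g was at -0.026, -0.025 and -0.025, and Tigar at -0.027, -0.025 and -0.027 (library totals, limma with 1 and with 0.1). Trp53inp1 was at 0.00068 with DESeq2 and from -0.077 to 0.054 with a library left out. Calls were lost for Perp, Phlda3, Rrm2b and Xpc in some fits and gained for Atr and Apaf1, and with library totals 13 genes were higher and 12 lower.

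Of the checkpoint and repair genes, 5 instead of 8 were higher with limma under either pseudocount and when genes sharing exon sequence were left out. In that last fit only 36 of the 64 genes were tested, 5 of them higher and 22 lower, beside 8 and 37 of 64 in the main fit. The smaller counts there go with fewer genes tested. Depth limited Dram1, whose log2 fold change of -0.51 had an SE of 0.382.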
